A study of Mus musculus with 128 samples.

Results

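The liver breaks down amino acids and turns their nitrogen into urea, and 43 genes that encode these steps were read in mouse liver RNA-seq libraries of 26 groups. The genes were taken by name from the 35275 rows of the deposited count table and were grouped by the amino acid broken down. All 43 were found, and all 43 were among the 16886 genes with enough reads to be tested. Of the genes, 6 belong to the urea cycle (Cps1, Otc, Ass1, Asl, Arg1, Nags) and 5 to phenylalanine and tyrosine breakdown (Tat, Hpd, Hgd, Fah, Gstz1). Tryptophan breakdown has 4 (Tdo2, Kmo, Kynu, Haao), histidine 4 (Hal, Uroc1, Amdhd1, Ftcd) and serine and glycine 4 (Sds, Agxt, Gldc, Amt). Glutamine, glutamate, aspartate and alanine have 5 (Gls2, Glud1, Got1, Gpt, Gpt2), and proline and ornithine 4 (Oat, Prodh, Prodh2, Aldh4a1). Methionine and cysteine have 5 (Cth, Cbs, Bhmt, Mat1a, Gnmt), the branched-chain amino acids 5 (Bckdha, Bckdhb, Ivd, Mccc1, Mccc2) and lysine 1 (Aass). All 43 are protein-coding genes, and positions of genes are given on mm10, the build the deposited table uses.

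The mice were male, wild type and 8 weeks old, of strain C57BL6/J or BALB/c, and had been trained for 1 week to eat only in an evening window. All were fasted for 21 h. One group of each strain was killed at the end of the fast, at 7 pm (0 h), and the others were refed a chow with 10% of its calories as fat and 64.5% as carbohydrate. The refed mice drank plain water or a 20% solution of glucose, of sucrose or of fructose, and were killed 3, 6 or 12 h after the start of the meal. This gives 26 groups, 24 with 5 libraries and 2 with 4 (BALB/c on glucose and on fructose at 12 h). Every refed group was killed at another hour of the night or morning than the fasted group, so the effects of the meal and of the time of day cannot be told apart. The labels do not say outright that the libraries of a group came from separate mice, so the p-values measure only the spread between these libraries.

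Amino acid breakdown in liver usually begins with the removal of nitrogen. Aminotransferases such as Got1, Gpt, Gpt2 and Tat pass the amino group to 2-oxoglutarate, and glutamate dehydrogenase (Glud1) and glutaminase (Gls2) release ammonia, which the urea cycle fixes into urea. The carbon skeletons then feed gluconeogenesis, ketone body synthesis or the citric acid cycle. Glucagon and glucocorticoids are known to raise many of these genes in fasting and on high-protein diets, and insulin is known to lower several of them. Most of the urea cycle and of serine, proline and histidine breakdown is concentrated in hepatocytes near the portal vein.

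Library totals ran from 18541545 to 43118895 reads in genes, and mitochondrial genes took 3.03% to 14.1% of them. The hepatocyte markers Alb, Ttr, Apoa1, Apob, Fga and Serpina1a were high in every library. In 22 libraries the profile lay nearest to a group of another time, over the 500 other genes whose means varied most between times. Among the 22 were the fasted C57BL6/J replicate 1, nearest to 12 h, and replicate 2, nearest to 3 h. One library stood far apart in the genes described here: in replicate 1 of the fasted BALB/c mice the 43 genes summed to 98245 CPM (counts scaled to a common library size), against 25245 to 44601 in the other 9 fasted libraries and 18649 to 58362 in all other 127. It was the highest library of the series in 16 of the genes, among them Cps1, Asl, Arg1, Tat, Sds, Got1, Gpt2, Cth, Mat1a and Aass, and the lowest in 5 (Otc, Gstz1, Haao, Amt, Glud1). Its hepatocyte markers summed to 51746 CPM, against 75082 to 114404 in the other fasted libraries. Results of the 43 genes against 0 h are therefore given with all libraries and also without 3 libraries whose values stood apart. The 3 are the library above, replicate 2 of the fasted C57BL6/J mice and replicate 1 of the BALB/c mice on water at 12 h. That set was chosen after the values were seen. In a search for values far from their group, the fasted C57BL6/J replicate 2 and the BALB/c water 12 h replicate 1 each stood out in 1 gene. Replicate 4 of C57BL6/J on water at 3 h stood out in 6 genes and was kept. In the fasted C57BL6/J replicate 2, Sds was at 41.1 CPM, below the other 9 fasted libraries.

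**Figure D1:**
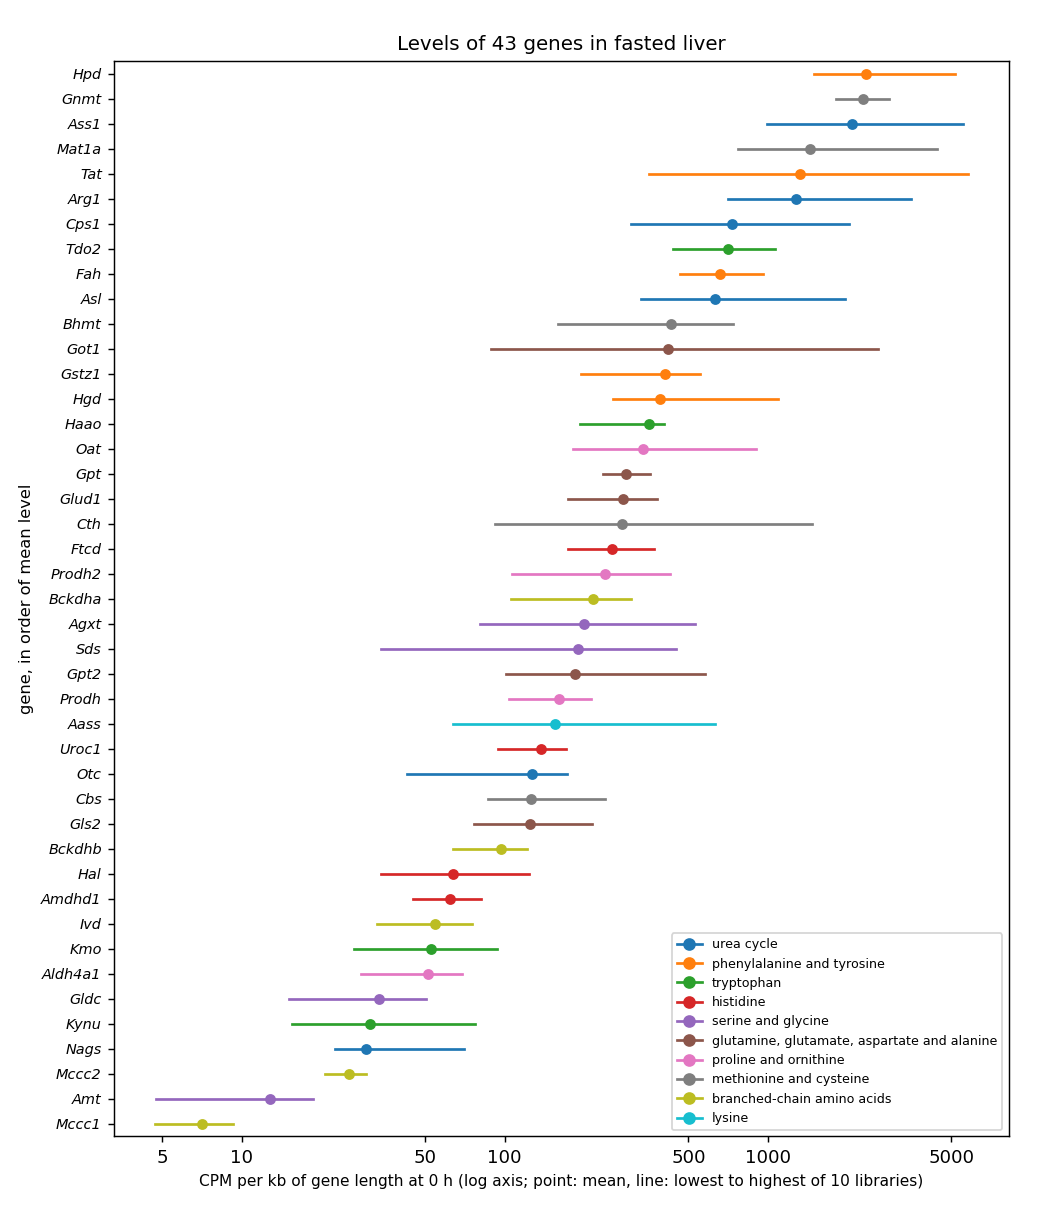
Level of each of the 43 genes in the 10 fasted libraries, as CPM per kilobase of gene length on a log axis; points are means, lines run from the lowest to the highest library, and colours mark the amino acid. Hpd, Gnmt and Ass1 have the highest means and Mccc2, Amt and Mccc1 the lowest.

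The 43 genes span a wide range of transcript levels in fasted liver. Per kilobase of gene length, Hpd, which oxidises 4-hydroxyphenylpyruvate in tyrosine breakdown, had the highest mean at 2367 CPM per kilobase, with single libraries from 1499 to 5149. The glycine methyltransferase gene Gnmt followed at 2306 (1814 to 2883), and Ass1, which makes argininosuccinate in the urea cycle, at 2102 (994 to 5526). These 3 ranges overlap, so their order is not resolved. Mat1a, Tat, Arg1, Cps1, Tdo2, Fah and Asl came next, with means from 1455 down to 631 CPM per kilobase. At the other end stood Mccc2 at 25.7, the glycine cleavage gene Amt at 12.8 and Mccc1 at 7.08 CPM per kilobase. The level was 100 CPM per kilobase or more for 31 of the 43 genes, and for the same number at 100 in the deposited FPKM values.

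The genes differed in how far their levels moved over the 26 group means. Got1, the cytosolic aspartate aminotransferase, ran from 73.9 CPM in C57BL6/J on glucose at 6 h to 1347 CPM in fasted BALB/c mice, a ratio of 18.2. The tyrosine aminotransferase Tat spanned 11.6-fold, the serine dehydratase Sds 8.14-fold, and Aass, Asl, Bhmt and Agxt 4.61, 4.59, 4.22 and 4.01-fold. For Got1, Tat, Sds, Aass, Asl and Agxt the highest group was the fasted BALB/c group that holds the library that stands apart. Without that library the spans were 6.68-fold for Got1, 6.37-fold for Sds, 5.54-fold for Tat, 3.82-fold for Agxt, 3.38-fold for Asl and 2.36-fold for Aass, and the highest group of Got1 was BALB/c on water at 12 h. Gstz1, the maleylacetoacetate isomerase, spanned 1.27-fold and Nags, whose product activates Cps1, 1.42-fold (1.40 and 1.39 without it).

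Refeeding with plain water was compared with the end of the fast as the mean of both strains. At 3 h after the meal began, 1 of the 43 genes was higher than at 0 h and 13 were lower, while 12.7% of all genes tested were higher and 12.7% lower. At 6 h, 7 were higher and 10 lower, against 13.9% and 14.9% of all genes. At 12 h, 6 were higher and 9 lower, against 8.31% and 9.30%. The median log2 fold change of the 43 genes was -0.13 at 3 h, -0.10 at 6 h and 0.03 at 12 h, beside -0.01 for all genes at 3 h, and 32 of the 43 values were negative at 3 h. Without the 3 libraries the counts were 4 higher and 8 lower at 3 h, 9 and 8 at 6 h and 8 and 9 at 12 h, and 9 of the 14, 13 of the 17 and 13 of the 15 calls remained. Without the fasted BALB/c replicate 1 alone, fewer calls remained: 7 of the 14 at 3 h, 12 of the 17 at 6 h and 11 of the 15 at 12 h. The 3 times share the fasted libraries, so they are not independent of each other.

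**Figure D2:**
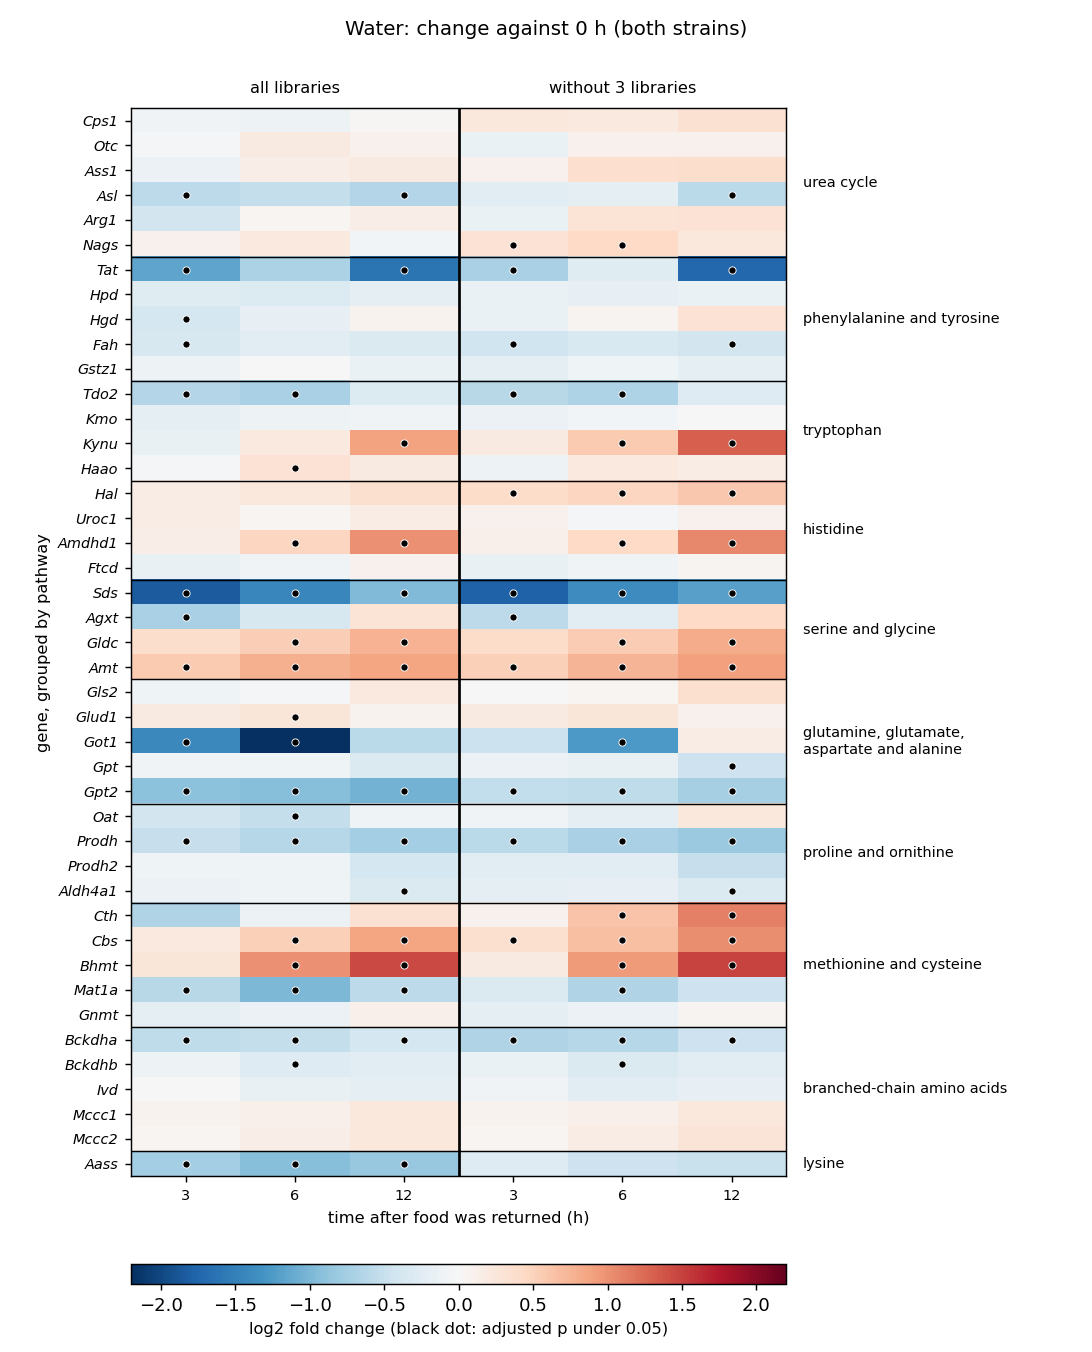
Log2 fold change of each of the 43 genes on water at 3, 6 and 12 h against 0 h, as the mean of both strains, in colour (blue lower, red higher), with all libraries on the left and without the 3 libraries on the right; dots mark an adjusted p under 0.05. Gpt2, Sds, Prodh and Bckdha are blue with a dot at all 3 times in both panels and Amt red with a dot, while the dots of Aass are in the left panel alone.

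Among the serine and glycine genes, Sds and Agxt were lower at 3 h. Sds (ENSMUSG00000029597, chromosome 5, 120476531 to 120483932, plus strand) makes pyruvate from serine and is a classical fasting gene of periportal hepatocytes. Sds read 178, 41.1, 132, 286 and 212 CPM in the fasted C57BL6/J libraries, 59.8, 43.9, 83.7, 35.3 and 53.6 after 3 h of refeeding, 37.6, 33.2, 76.0, 104 and 41.7 after 6 h and 80.8, 67.4, 190, 57.2 and 104 after 12 h. For Sds the fasted BALB/c libraries read 540, 201, 201, 287 and 214 CPM, with 67.2, 61.8, 91.6, 71.7 and 56.4 after 3 h, 49.6, 115, 152, 184 and 66.1 after 6 h and 291, 79.9, 81.2, 131 and 53.6 after 12 h. All BALB/c values at 3 and 6 h lay below all fasted ones, and in C57BL6/J only the low fasted replicate 2 overlapped the 3 h values. Sds was lower by a log2 fold change of -1.83 at 3 h (SE 0.30, adjusted p = 8.00e-07), -1.44 at 6 h (SE 0.30, adjusted p = 6.54e-05) and -0.97 at 12 h (SE 0.30, adjusted p = 0.0126). At 3 h all 10 libraries lay below the fasted median of their strain, and without the 3 libraries the value was -1.78 (adjusted p = 4.20e-07). The 12 h call of Sds was lost without the fasted BALB/c replicate 1 alone (-0.80, adjusted p = 0.0523). In the same group of serine and glycine genes, Agxt, which moves the amino group of alanine to glyoxylate, fell at 3 h (log2 fold change -0.71, SE 0.18, adjusted p = 8.56e-04) and was at 0.30 at 12 h, where it did not pass the test. In bulk liver RNA, fewer cells of a type and less RNA per cell cannot be told apart.

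The reads of Sds need care. On the opposite strand its span overlaps Plbd2, whose mean level was 90.2% of that of Sds, and no source used here says if the counting was by strand. Plbd2 itself was lower on water, by log2 fold changes of -0.45, -0.76 and -0.65 at 3, 6 and 12 h, smaller than those of Sds. Prodh overlaps Dgcr6 (17.2% of the level of Prodh), Gls2 overlaps Spryd4 (10.0%) and Kmo overlaps Fh1 (135%), each on the opposite strand. How much of each count came from the other gene was not tested.

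The glycine cleavage system moved the other way. Gldc decarboxylates glycine and Amt takes over the remaining one-carbon unit, and both are subunits of 1 mitochondrial complex. Amt rose at 3 h (log2 fold change 0.57, SE 0.20, adjusted p = 0.0215), at 6 h (0.79, SE 0.20, adjusted p = 8.27e-04) and at 12 h (0.87, SE 0.20, adjusted p = 4.94e-04). The 3 h call of Amt was lost without the fasted BALB/c replicate 1 alone (0.47, adjusted p = 0.0696). Gldc was at 0.39 at 3 h (adjusted p = 0.0912) and rose at 6 h (0.54, SE 0.17, adjusted p = 0.0126) and 12 h (0.77, SE 0.17, adjusted p = 4.56e-04). At 12 h all 10 libraries lay above their strain's fasted median for Gldc and 7 of 10 for Amt, whose level was low, with a fasted mean of 12.8 CPM per kilobase.

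Of the alanine aminotransferases, Gpt2 was lower at all 3 times. Gpt2 (ENSMUSG00000031700, chromosome 8, 85492576 to 85527560, plus strand), the mitochondrial alanine aminotransferase, was at 828, 414, 486, 621 and 616 CPM in the fasted C57BL6/J libraries, 428, 389, 486, 351 and 516 after 3 h of refeeding, 399, 470, 514, 516 and 491 after 6 h and 369, 527, 372, 341 and 460 after 12 h. For Gpt2 the fasted BALB/c libraries read 2099, 369, 399, 428 and 484 CPM, with 297, 341, 268, 271 and 290 after 3 h, 196, 246, 306, 284 and 256 after 6 h and 341, 243, 266, 268 and 168 after 12 h. Every refed BALB/c value was below every fasted one, while the C57BL6/J ranges overlapped. Gpt2 fell at 3 h (log2 fold change -0.91, SE 0.15, adjusted p = 6.67e-07), 6 h (-0.93, SE 0.15, adjusted p = 2.82e-07) and 12 h (-1.04, SE 0.15, adjusted p = 3.55e-08). Without the 3 libraries it fell less, by -0.54, -0.56 and -0.73 on the log2 scale, and still passed at all 3 times. Gpt, the cytosolic paralog, was at -0.07, -0.10 and -0.31 and passed at none with all libraries. Without the 3 libraries, and without the fasted BALB/c replicate 1 alone, Gpt was called lower at 12 h. The difference between the paralogs was not tested.

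Got1 (ENSMUSG00000025190, chromosome 19, 43499752 to 43524605, minus strand) showed its lowest values at 6 h, and its values are given because they stood out once seen. Got1 read 508, 228, 247, 407 and 455 CPM in the fasted C57BL6/J libraries, 292, 272, 216, 137 and 280 after 3 h of refeeding, 105, 89.3, 94.8, 105 and 122 after 6 h and 254, 423, 494, 294 and 734 after 12 h. For Got1 the fasted BALB/c libraries read 5395, 325, 183, 560 and 271 CPM, with 366, 345, 219, 217 and 305 after 3 h, 161, 310, 241, 240 and 180 after 6 h and 923, 488, 272, 535 and 249 after 12 h. The C57BL6/J values at 6 h lay below all fasted values of that strain, the BALB/c values overlapped, and at 12 h both strains overlapped their fasted range. The log2 fold change was -1.42 at 3 h (SE 0.31, adjusted p = 1.72e-04), -2.20 at 6 h (SE 0.32, adjusted p = 1.55e-08) and -0.60 at 12 h (adjusted p = 0.184). Without the 3 libraries it was -0.48 at 3 h (adjusted p = 0.148), which no longer passed, and -1.27 at 6 h (adjusted p = 2.77e-05). Glud1 rose at 6 h by 0.27 with all libraries and did not pass without the 3, and Gls2 passed at no time.

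**Figure D3:**
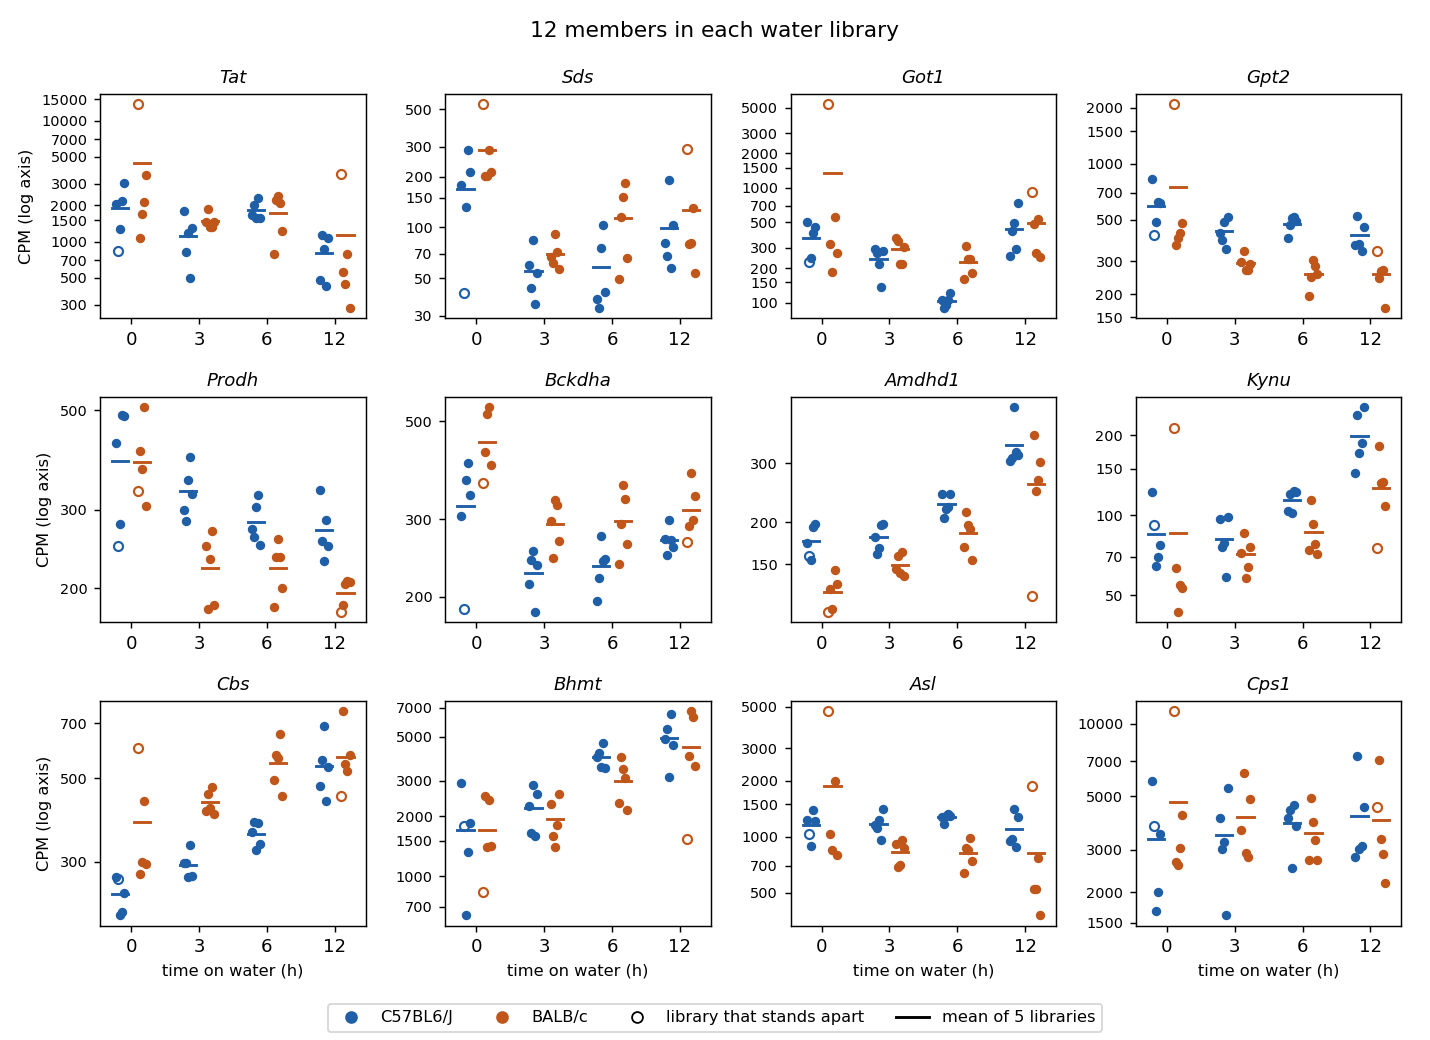
CPM of single libraries on water at 0, 3, 6 and 12 h for 12 of the genes, on log axes, with 1 point for each library coloured by strain, bars at the mean of 5 libraries, and open points for the 3 libraries that stand apart. The C57BL6/J points of Got1 are lowest at 6 h, Amdhd1, Cbs and Kynu are highest at 12 h in most libraries, and an open BALB/c point is the top one at 0 h for Tat, Sds, Got1, Gpt2, Asl and Cps1.

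Tat (ENSMUSG00000001670, chromosome 8, 109990437 to 109999803, plus strand), which removes the amino group of tyrosine and is a textbook target of glucocorticoids and glucagon, varied most among the phenylalanine and tyrosine genes. Tat read 2052, 841, 1262, 2171 and 3056 CPM in the fasted C57BL6/J libraries, 1791, 824, 1185, 500 and 1292 after 3 h of refeeding, 1658, 2023, 1579, 2299 and 1573 after 6 h and 483, 1135, 869, 429 and 1077 after 12 h. For Tat the fasted BALB/c libraries read 13741, 1071, 1686, 2130 and 3567 CPM, with 1459, 1862, 1319, 1315 and 1453 after 3 h, 792, 2191, 2370, 2064 and 1224 after 6 h and 3592, 564, 443, 783 and 281 after 12 h. The groups overlapped at each time, with the lowest medians of both strains at 12 h. Tat fell at 3 h (log2 fold change -1.16, SE 0.30, adjusted p = 0.0013) and at 12 h (-1.60, SE 0.30, adjusted p = 1.88e-05), and did not pass at 6 h (-0.70, adjusted p = 0.062). Without the 3 libraries the values were -0.72 at 3 h (adjusted p = 0.0177) and -1.72 at 12 h. Without the fasted BALB/c replicate 1 alone, the 3 h value of Tat did not pass (-0.63, adjusted p = 0.0859), and the 12 h value was -1.07 (adjusted p = 0.00258). Hgd and Fah, later steps of the pathway, fell at 3 h, by -0.38 and -0.35 on the log2 scale, and Hgd did not pass without the 3 libraries. The 3 h call of Fah was lost in 7 of 18 alternatives and that of Hgd in 4. At 12 h Fah was called lower without the 3 libraries and without the fasted BALB/c replicate 1 alone. Hgd was called higher at 12 h without that replicate alone. Hpd and Gstz1 passed at no time.

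Most urea cycle genes changed little as the mean of both strains with all libraries. By strain, Ass1 at 6 h was at 0.57 (SE 0.27) in C57BL6/J and -0.26 (SE 0.26) in BALB/c. Arg1 was at 0.43 and -0.34 (SE 0.25 each), while Otc was at 0.19 and 0.2 (SE 0.2 each). The BALB/c values include the fasted replicate 1. The difference between the strains passed the test for no urea cycle gene. Cps1 (ENSMUSG00000025991, chromosome 1, 67123026 to 67231259, plus strand), which makes carbamoyl phosphate from ammonia, was at 5779, 3762, 1680, 2000 and 3482 CPM in the fasted C57BL6/J libraries, 4079, 3028, 3220, 1606 and 5414 after 3 h of refeeding, 4068, 4376, 2519, 4609 and 3785 after 6 h and 2801, 7351, 3026, 3100 and 4535 after 12 h. For Cps1 the fasted BALB/c libraries read 11291, 2667, 2591, 3063 and 4185 CPM, with 3622, 6272, 2909, 2799 and 4879 after 3 h, 2726, 4932, 3903, 3308 and 2733 after 6 h and 4530, 7079, 3314, 2884 and 2191 after 12 h. The groups overlapped throughout, and the log2 fold change was -0.08, -0.11 and 0.03. Asl (ENSMUSG00000025533, chromosome 5, 130011258 to 130025132, minus strand) splits argininosuccinate into arginine and fumarate. With all libraries Asl was the only urea cycle gene to pass, at 3 h (log2 fold change -0.58, adjusted p = 0.0429) and 12 h (-0.64, adjusted p = 0.034).

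The values of Asl differed between the strains. Asl was at 1237, 1042, 893, 1394 and 1222 CPM in the fasted C57BL6/J libraries, 1158, 1124, 1227, 961 and 1410 after 3 h of refeeding, 1277, 1167, 1291, 1326 and 1302 after 6 h and 950, 981, 1419, 886 and 1287 after 12 h. For Asl the fasted BALB/c libraries read 4753, 1043, 847, 1988 and 798 CPM, with 922, 691, 704, 966 and 868 after 3 h, 640, 871, 856, 983 and 744 after 6 h and 1885, 527, 527, 774 and 379 after 12 h. The change was 0.02 at 3 h in C57BL6/J and -1.18 in BALB/c, and the 3 h value without the 3 libraries was -0.25 (adjusted p = 0.383). At 12 h Asl still passed without the 3 libraries (-0.59, adjusted p = 0.0328) but not without the fasted BALB/c replicate 1 alone (-0.29, adjusted p = 0.389), and this call was lost in 8 of 18 alternatives. The difference between the strains in this change passed the test at no time. Nags was called higher at 3 and 6 h without the 3 libraries and not with all libraries.

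Tryptophan and histidine breakdown held genes that rose on water. Kynu (ENSMUSG00000026866, chromosome 2, 43555329 to 43682715, plus strand) cleaves kynurenine and 3-hydroxykynurenine. Kynu read 122, 92.1, 64.3, 69.6 and 77.3 CPM in the fasted C57BL6/J libraries, 97.3, 76.1, 78.5, 58.6 and 98.7 after 3 h of refeeding, 104, 120, 102, 124 and 122 after 6 h and 144, 239, 172, 188 and 255 after 12 h. For Kynu the fasted BALB/c libraries read 214, 63.7, 43.4, 54.6 and 53.4 CPM, with 72.5, 86.1, 58.2, 64.0 and 76.4 after 3 h, 74.4, 114, 93.0, 78.4 and 71.8 after 6 h and 75.2, 182, 133, 134 and 109 after 12 h. The C57BL6/J groups at 0 and 12 h did not overlap, and in BALB/c only the fasted replicate 1 lay above 12 h values. Kynu rose at 12 h by a log2 fold change of 0.89 (SE 0.17, adjusted p = 3.04e-05), or 1.32 without the 3 libraries (adjusted p = 1.42e-10). Without the 3 libraries, and without the fasted BALB/c replicate 1 alone, Kynu was also called higher at 6 h. Tdo2, the first enzyme of the pathway, fell at 3 h (-0.64) and 6 h (-0.71), Haao rose at 6 h (0.31, SE 0.10, adjusted p = 0.014) with all libraries only, and Kmo passed at no time.

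Amdhd1 (ENSMUSG00000015890, chromosome 10, 93523338 to 93540033, minus strand), which opens the imidazolonepropionate ring in histidine breakdown, rose at 6 and 12 h. Amdhd1 read 173, 158, 154, 194 and 197 CPM in the fasted C57BL6/J libraries, 180, 161, 167, 196 and 197 after 3 h of refeeding, 243, 206, 219, 222 and 242 after 6 h and 305, 311, 440, 324 and 317 after 12 h. For Amdhd1 the fasted BALB/c libraries read 108, 126, 110, 144 and 131 CPM, with 145, 158, 141, 163 and 138 after 3 h, 169, 215, 196, 191 and 154 after 6 h and 120, 364, 247, 267 and 302 after 12 h. At 6 h neither strain overlapped its fasted values, and at 12 h only BALB/c replicate 1 did. Amdhd1 rose at 6 h (log2 fold change 0.47, SE 0.11, adjusted p = 2.74e-04) and at 12 h (1.01, SE 0.11, adjusted p = 7.57e-13). The other 3 histidine genes did not pass with all libraries. Hal, which starts the pathway, passed at all 3 times without the 3 libraries and was then at 0.60 at 12 h without the 3 libraries (adjusted p = 0.00152).

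Methionine and homocysteine genes moved in both directions. Cbs (ENSMUSG00000024039, chromosome 17, 31612623 to 31637199, minus strand) joins homocysteine to serine, and Bhmt uses betaine to remake methionine from homocysteine. Cbs read 273, 270, 216, 221 and 248 CPM in the fasted C57BL6/J libraries, 297, 297, 273, 332 and 275 after 3 h of refeeding, 359, 382, 322, 380 and 334 after 6 h and 478, 560, 690, 435 and 536 after 12 h. For Cbs the fasted BALB/c libraries read 601, 279, 300, 436 and 295 CPM, with 410, 454, 417, 474 and 401 after 3 h, 495, 576, 566, 656 and 448 after 6 h and 449, 755, 547, 522 and 575 after 12 h. The C57BL6/J values at 6 and 12 h lay above all fasted values, and in BALB/c only the fasted replicate 1 reached into them. Cbs rose at 6 h (log2 fold change 0.53, SE 0.11, adjusted p = 8.87e-05) and 12 h (0.86, SE 0.11, adjusted p = 1.76e-09). Without the 3 libraries, and without the fasted BALB/c replicate 1 alone, Cbs was also called higher at 3 h.

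Bhmt (ENSMUSG00000074768, chromosome 13, 93616891 to 93637961, minus strand) rose further, and it is described because it stood out once seen. Bhmt read 2931, 1780, 635, 1326 and 1856 CPM in the fasted C57BL6/J libraries, 2244, 1646, 2857, 1590 and 2590 after 3 h of refeeding, 3961, 4129, 3539, 4661 and 3486 after 6 h and 4849, 5478, 3142, 6516 and 4541 after 12 h. For Bhmt the fasted BALB/c libraries read 834, 2508, 1395, 2403 and 1409 CPM, with 2306, 1595, 1406, 1812 and 2568 after 3 h, 2319, 3965, 3451, 3086 and 2135 after 6 h and 1543, 4019, 6731, 6289 and 3563 after 12 h. The C57BL6/J values at 6 and 12 h lay above all fasted values of that strain, and the BALB/c ones overlapped. Bhmt rose by a log2 fold change of 1.01 at 6 h (SE 0.22, adjusted p = 1.61e-04) and 1.45 at 12 h (SE 0.23, adjusted p = 2.48e-07). Mat1a, which makes S-adenosylmethionine, fell at 3 h (-0.61), 6 h (-0.98, SE 0.21, adjusted p = 9.82e-05) and 12 h (-0.57); without the 3 libraries only the 6 h fall passed (-0.67, adjusted p = 0.00385). Cth did not pass with all libraries and was at 0.62 at 6 h (adjusted p = 0.0302) and 1.10 at 12 h (adjusted p = 1.82e-04) without the 3, and Gnmt passed at no time.

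In proline breakdown the dehydrogenase Prodh fell. Prodh (ENSMUSG00000003526, chromosome 16, 18060357 to 18090203, minus strand), the mitochondrial proline dehydrogenase, was at 423, 248, 279, 488 and 487 CPM in the fasted C57BL6/J libraries, 299, 283, 349, 393 and 325 after 3 h of refeeding, 271, 260, 304, 324 and 250 after 6 h and 331, 255, 230, 284 and 248 after 12 h. For Prodh the fasted BALB/c libraries read 330, 405, 370, 508 and 305 CPM, with 248, 180, 233, 268 and 183 after 3 h, 181, 235, 258, 235 and 200 after 6 h and 177, 183, 204, 207 and 206 after 12 h. No refed BALB/c value reached the fasted ones, and the C57BL6/J ranges overlapped. Prodh fell by log2 fold changes of -0.51 at 3 h, -0.62 at 6 h and -0.74 at 12 h (SE 0.16, adjusted p = 2.05e-04). Prodh2, which acts on hydroxyproline, was at -0.09, -0.10 and -0.39 and passed at no time. Oat was called lower at 6 h (-0.52) with all libraries only, and Aldh4a1, the next step of proline breakdown, fell at 12 h (-0.31). The call of Aldh4a1 was lost in 9 of 18 alternatives.

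Bckdha (ENSMUSG00000060376, chromosome 7, 25629852 to 25658761, minus strand) encodes the catalytic alpha subunit of the branched-chain 2-oxoacid dehydrogenase, and Bckdhb the beta subunit. Bckdha read 305, 188, 367, 401 and 341 CPM in the fasted C57BL6/J libraries, 214, 242, 254, 185 and 236 after 3 h of refeeding, 196, 221, 275, 241 and 243 after 6 h and 271, 249, 299, 269 and 259 after 12 h. For Bckdha the fasted BALB/c libraries read 362, 425, 519, 537 and 397 CPM, with 297, 245, 332, 323 and 267 after 3 h, 237, 292, 359, 333 and 264 after 6 h and 266, 289, 382, 299 and 338 after 12 h. In BALB/c the groups at 3 and 6 h did not overlap the fasted group, and in C57BL6/J they overlapped through the fasted replicate 2 alone. Bckdha fell at 3 h (log2 fold change -0.56, SE 0.10, adjusted p = 2.08e-06), 6 h (-0.52, SE 0.10, adjusted p = 7.64e-06) and 12 h (-0.38, SE 0.10, adjusted p = 0.0021). Bckdhb was at -0.11, -0.29 and -0.23 and passed at 6 h only, a call lost without the fasted BALB/c replicate 1 (-0.28, adjusted p = 0.0568). Ivd, of leucine breakdown, passed at no time, nor did Mccc1 (0.08, 0.12 and 0.24) or Mccc2 (0.04, 0.15 and 0.23), the subunits of 1 leucine-breakdown carboxylase.

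Aass (ENSMUSG00000029695, chromosome 6, 23072173 to 23132986, minus strand) carries the first 2 steps of lysine breakdown. Aass read 466, 310, 235, 331 and 422 CPM in the fasted C57BL6/J libraries, 347, 268, 282, 194 and 391 after 3 h of refeeding, 291, 260, 250, 333 and 353 after 6 h and 242, 382, 327, 274 and 375 after 12 h. For Aass the fasted BALB/c libraries read 2343, 391, 269, 531 and 431 CPM, with 357, 389, 237, 249 and 448 after 3 h, 205, 329, 279, 224 and 263 after 6 h and 429, 309, 206, 254 and 162 after 12 h. The groups overlapped at each time, and the 2343 CPM of the library that stands apart is far above the next highest fasted value. With that library Aass fell at 3, 6 and 12 h, by -0.74, -0.93 (SE 0.22, adjusted p = 4.62e-04) and -0.84 (SE 0.22, adjusted p = 0.00275), and without the 3 libraries it passed at none, at -0.28, -0.46 and -0.49.

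Across these results, 23 of the 46 calls on water were kept under every one of the alternatives tried. They were Sds, Gpt2, Prodh and Bckdha at 3 h, these 4 with Amdhd1, Amt, Got1, Cbs, Bhmt and Mat1a at 6 h, and Tat, Kynu, Amdhd1, Gldc, Amt, Gpt2, Prodh, Cbs and Bhmt at 12 h. The summed level of 8 pericentral marker genes, among them Glul and Cyp2e1, also moved on water. Its medians were 13618, 10842, 8538 and 8184 CPM over the 10 libraries of each time from 0 to 12 h. Cyp2e1 weighs most in this sum, at a median of 6165 CPM over all libraries, with Rgn next at 767 CPM. Of the 8, 2 were lower at 3 h, 4 at 6 h and 4 at 12 h, when 2 others were higher. The 6 hepatocyte markers had medians of 83101, 84624, 86728 and 80770 CPM. Those of 6 periportal markers were 60994, 60672, 63307 and 58185 CPM, a sum in which Alb, also a hepatocyte marker, weighs most. Skeletal muscle markers had medians of 217, 65.8, 227 and 2.26 CPM at the same times. At 6 h single libraries held markers of other organs: kidney markers summed to 926 CPM in replicate 1 of BALB/c on water and adrenal markers to 600 CPM in replicate 2 of C57BL6/J on water, against medians of 0.0473 and 3.10 CPM over the 10 libraries on water at 6 h. The part of these markers in the results was not tested.

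Promoters of 34 of the 43 genes were found in RefSeq (GRCm38.p6), as the 250 bases before an annotated start. They came to 36 windows, as Gstz1 and Bckdhb each have a further window inside the gene. Some windows, among them that of Kmo, lie inside the span of the gene given in the count table. Those of 4 genes called lower with all libraries are shown because Got1 and Aass hold a motif of cyclic AMP or ATF factors and Tat and Gpt2 fell without one; capitals mark a motif found and lower case the rest, and each is written 5′ to 3′ on the strand of the gene.
Got1, chr19:43524606-43524855, minus strand: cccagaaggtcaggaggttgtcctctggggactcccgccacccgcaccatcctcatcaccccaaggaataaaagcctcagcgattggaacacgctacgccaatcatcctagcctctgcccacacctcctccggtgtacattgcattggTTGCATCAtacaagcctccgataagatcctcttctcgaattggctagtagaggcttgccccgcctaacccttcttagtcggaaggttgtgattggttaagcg
Aass, chr6:23132987-23133236, minus strand: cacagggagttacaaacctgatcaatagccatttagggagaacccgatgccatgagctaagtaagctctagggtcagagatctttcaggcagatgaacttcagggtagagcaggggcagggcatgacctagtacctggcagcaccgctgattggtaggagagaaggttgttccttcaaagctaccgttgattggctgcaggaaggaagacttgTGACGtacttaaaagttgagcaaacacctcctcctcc
Tat, chr8:109990186-109990435, plus strand: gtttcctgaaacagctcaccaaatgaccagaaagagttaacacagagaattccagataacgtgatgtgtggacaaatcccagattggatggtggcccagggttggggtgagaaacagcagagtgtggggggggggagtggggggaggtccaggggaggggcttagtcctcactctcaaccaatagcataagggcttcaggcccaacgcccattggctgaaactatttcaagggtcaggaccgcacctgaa
Gpt2, chr8:85492326-85492575, plus strand: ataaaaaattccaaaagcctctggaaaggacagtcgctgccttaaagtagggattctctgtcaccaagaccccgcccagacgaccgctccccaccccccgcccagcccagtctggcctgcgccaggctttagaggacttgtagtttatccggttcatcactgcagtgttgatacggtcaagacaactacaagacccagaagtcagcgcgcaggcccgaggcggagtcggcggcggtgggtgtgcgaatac
Motifs were searched on both strands. TTGCATCA, a composite C/EBP and ATF site, was in Got1 alone, its first base at -102 from the start, and in 0.791% of 32851 promoters of the same length. TGACG, the core of the cyclic AMP response element, was in 3 (Gstz1, Ftcd and Aass) and in 17.8% of all promoters; its full form TGACGTCA was in none of the 34 and in 1.55% of all. AGAACA, part of the glucocorticoid receptor site, was in Haao, Agxt and Bckdhb and in 16.1% of all, and the E-box CACGTG in Ass1, Cbs and Mccc2 and in 6.02%. CACCC, the core of KLF sites, was in 24 of the 34, Tat and Gpt2 among them, and in 52% of all, and is left in lower case. TTGCGCAA, TGTTTAC and TTATGTAA were in none of the 34. A match describes letters in this window and is not a bound site.

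Other genes of amino acid metabolism were counted on water, from lists drawn up with earlier results known. Their values are with all libraries only, and the part of the fasted BALB/c replicate 1 in them was not tested. Of 16 amino acid carriers, 6 were lower at 3 h, 10 at 6 h and 6 at 12 h, with 0, 1 and 0 higher, beside the background given for these contrasts. Slc38a2, a carrier of small neutral amino acids, was at -1.76, -1.22 and -1.04 at 3, 6 and 12 h, and Slc7a2, a carrier of arginine and lysine, at -2.62 at 3 h and -2.15 at 6 h. Of 15 regulators, 6, 7 and 7 were lower and 2, 1 and 1 higher: Foxo1 was at -1.30, -1.07 and -0.96, Cebpb at -1.56, -1.23 and -1.42, and Ppargc1a at -2.18 at 3 h and -1.71 at 6 h. Klf15, a known activator of amino acid breakdown genes, was at -0.95 at 12 h. Of 10 genes linked to ATF4, the amino acid stress factor, 5, 4 and 5 were lower: Chac1 was at -3.69, -3.65 and -1.97 and Sesn2 at -2.16, -1.61 and -0.74. Psph, which makes serine, was at 0.58 at 3 h and 0.91 at 6 h. Of 51 other degradation enzymes, 3, 6 and 3 were higher and 7, 8 and 8 lower, among them Glul, glutamine synthetase, at -0.71 at 6 h and -0.61 at 12 h.

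The sugars were compared with plain water at the same time, so the sugars share their water controls. With all libraries, no member was higher under any of the 9 comparisons. Kynu, at 0.45 on fructose at 3 h (adjusted p = 0.0986), was called higher there without the fasted BALB/c replicate 1 (adjusted p = 0.0414) and without the 3 libraries (adjusted p = 0.0343). At 3 h glucose changed none of the 43 (0.166% of all genes higher and 0.0237% lower), with 1 member at an unadjusted p under 0.05 in edgeR and none called by DESeq2. Sucrose lowered 3 (1.65% of all genes higher and 1.27% lower) and fructose 2 (3.37% and 3.34%). At 6 h glucose lowered 4 (0.545% and 0.361%), sucrose 4 (0.580% and 0.563%) and fructose 2 (0.580% and 0.646%). At 12 h no member passed in edgeR under glucose, sucrose or fructose (0.0651%, 0.00592% and 0.00592% of all genes in either direction). At an unadjusted p under 0.05 there were 15, 12 and 7 members there, and DESeq2 called 3, 1 and 0.

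**Figure D4:**
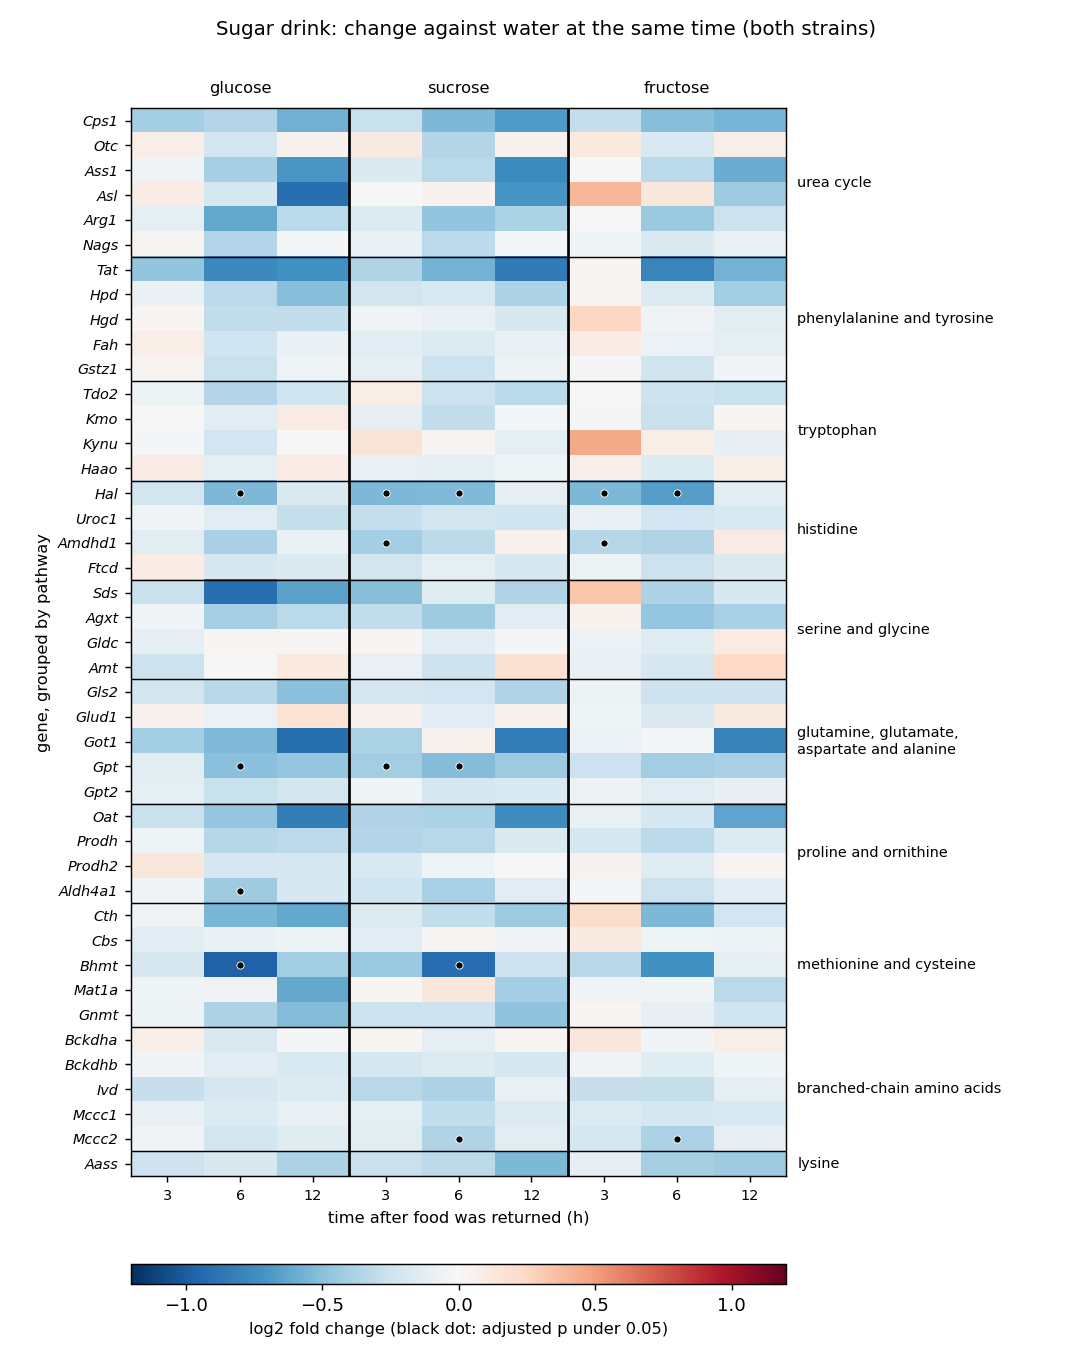
Log2 fold change of each of the 43 genes under glucose, sucrose and fructose against water at 3, 6 and 12 h, as the mean of both strains, in colour, with a dot for those that passed an adjusted p of 0.05. The dots lie at 3 and 6 h on lower values, and Hal carries 5 of the 15.

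Markers of other organs were high in single libraries of these groups at 6 h. Beside the 2 water libraries named above, kidney markers summed to 1515 CPM in replicate 3 of BALB/c on glucose, and stomach, pancreas and intestine markers to 869 CPM in replicate 3 of C57BL6/J on glucose. Without replicate 2 of C57BL6/J on water at 6 h, 2 members were called on glucose, 2 on sucrose and 1 on fructose at 6 h, in place of 4, 4 and 2. The part of the other 3 libraries in the sugar results was not tested.

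Hal (ENSMUSG00000020017, chromosome 10, 93488768 to 93519304, plus strand), the histidase that starts histidine breakdown, was lower under 5 of these comparisons. At 6 h it was at 587, 457, 418, 557 and 551 CPM in C57BL6/J on water, 353, 325, 252, 396 and 350 on glucose, 397, 272, 270, 268 and 418 on sucrose and 317, 340, 284, 286 and 318 on fructose. In BALB/c at 6 h it was at 268, 365, 309, 294 and 311 CPM on water, 166, 194, 172, 357 and 230 on glucose, 325, 237, 161, 245 and 210 on sucrose and 200, 233, 197, 268 and 139 on fructose. In C57BL6/J the glucose and fructose values lay below all water values, and in BALB/c the ranges overlapped or met. The log2 fold change at 6 h was -0.54 on glucose (SE 0.15, adjusted p = 0.0468), -0.53 on sucrose (SE 0.15, adjusted p = 0.0499) and -0.66 on fructose (SE 0.15, adjusted p = 0.00761). At 3 h it was -0.54 on sucrose (SE 0.15, adjusted p = 0.0233) and -0.54 on fructose (SE 0.15, adjusted p = 0.0125). Amdhd1 fell at 3 h on sucrose (-0.41, SE 0.11, adjusted p = 0.0165) and fructose (-0.34, SE 0.11, adjusted p = 0.0366).

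Gpt, the cytosolic alanine aminotransferase, fell with sugar. At 6 h it was at 524, 417, 460, 527 and 496 CPM in C57BL6/J on water, 281, 294, 289, 402 and 396 on glucose, 397, 308, 362, 294 and 296 on sucrose and 353, 295, 346, 274 and 290 on fructose. In BALB/c at 6 h it was at 409, 459, 538, 471 and 411 CPM on water, 286, 333, 302, 403 and 353 on glucose, 357, 315, 298, 369 and 298 on sucrose and 336, 283, 342, 770 and 262 on fructose. The sugar groups lay below the water groups apart from the fructose replicate 4 of BALB/c. Gpt fell on glucose at 6 h (-0.50, SE 0.12, adjusted p = 0.0239) and on sucrose at 6 h (-0.52, SE 0.12, adjusted p = 0.0117) and 3 h (-0.42, SE 0.12, adjusted p = 0.031).

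Bhmt, which rose on water at 6 h, was at lower values with sugar at that time. In C57BL6/J it was at 1956, 2586, 933, 1928 and 1585 CPM on glucose, 2549, 1265, 1504, 1176 and 740 on sucrose and 1671, 1905, 1451, 1119 and 2013 on fructose, all below the water values given above. In BALB/c it was at 1364, 1732, 1008, 3067 and 1381 CPM on glucose, 1601, 2989, 2059, 2595 and 2326 on sucrose and 2086, 2574, 2340, 3956 and 2170 on fructose, overlapping water. It fell on glucose (-0.97, SE 0.22, adjusted p = 0.0151) and on sucrose (-0.91, SE 0.22, adjusted p = 0.017). Mccc2 fell at 6 h on sucrose (-0.36, SE 0.10, adjusted p = 0.0499) and fructose (-0.38, SE 0.10, adjusted p = 0.034), and Aldh4a1 on glucose (-0.43, SE 0.11, adjusted p = 0.037).

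Under sugar the members lay slightly below water as a group, with few calls. At 6 h the median log2 fold change was -0.27 on glucose, -0.26 on sucrose and -0.23 on fructose, and 42, 38 and 41 of the 43 values were negative. At 12 h the medians were -0.22, -0.18 and -0.14, with 36, 38 and 34 negative, and at 3 h -0.05, -0.17 and -0.04, with 32, 36 and 26 negative. All-gene medians lay between -0.01 and 0.02. The 43 values of a comparison come from the same libraries and the sugars share their water controls, so they are not independent. The shift as a group was not tested. The strains were not alike in every case: BALB/c on fructose at 3 h had 11 negative values and a median of 0.12, with 1 library (replicate 4) that was far from its group in 8 of the genes. All 15 sugar calls were lost under at least 1 alternative. Fructose and glucose differed in no member at 3, 6 or 12 h in edgeR (2.35%, 0.255% and 0% of all genes called), with 4, 0 and 1 at an unadjusted p under 0.05 and none called by DESeq2.

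The strains were compared over all 13 conditions, as BALB/c against C57BL6/J. Of the 43 genes, 16 were higher and 11 lower in BALB/c, while 28.7% of all genes were higher and 26.5% lower. Kmo (ENSMUSG00000039783, chromosome 1, 175620381 to 175662116, plus strand), the kynurenine hydroxylase, was lower in BALB/c in 13 of 13 conditions, without overlap in 9 of them (log2 fold change -0.84, SE 0.05, adjusted p = 1.85e-29). Fasted C57BL6/J livers had 343, 223, 216, 227 and 259 CPM of Kmo and fasted BALB/c livers 184, 108, 98.3, 133 and 129, and no values overlapped. Fh1, which overlaps Kmo, was at 0.24, the opposite direction. Aldh4a1 was lower by -0.56 (SE 0.04, adjusted p = 9.10e-22), Hal by -0.59 (SE 0.06, adjusted p = 3.14e-16), Ivd by -0.51 (SE 0.05, adjusted p = 2.19e-15), Gpt2 by -0.47 (SE 0.06, adjusted p = 1.83e-11) and Amdhd1 by -0.27 (SE 0.04, adjusted p = 3.80e-08). Aldh4a1, Hal and Ivd were lower in 13 of 13 conditions and Gpt2 in 11.

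**Figure D5:**
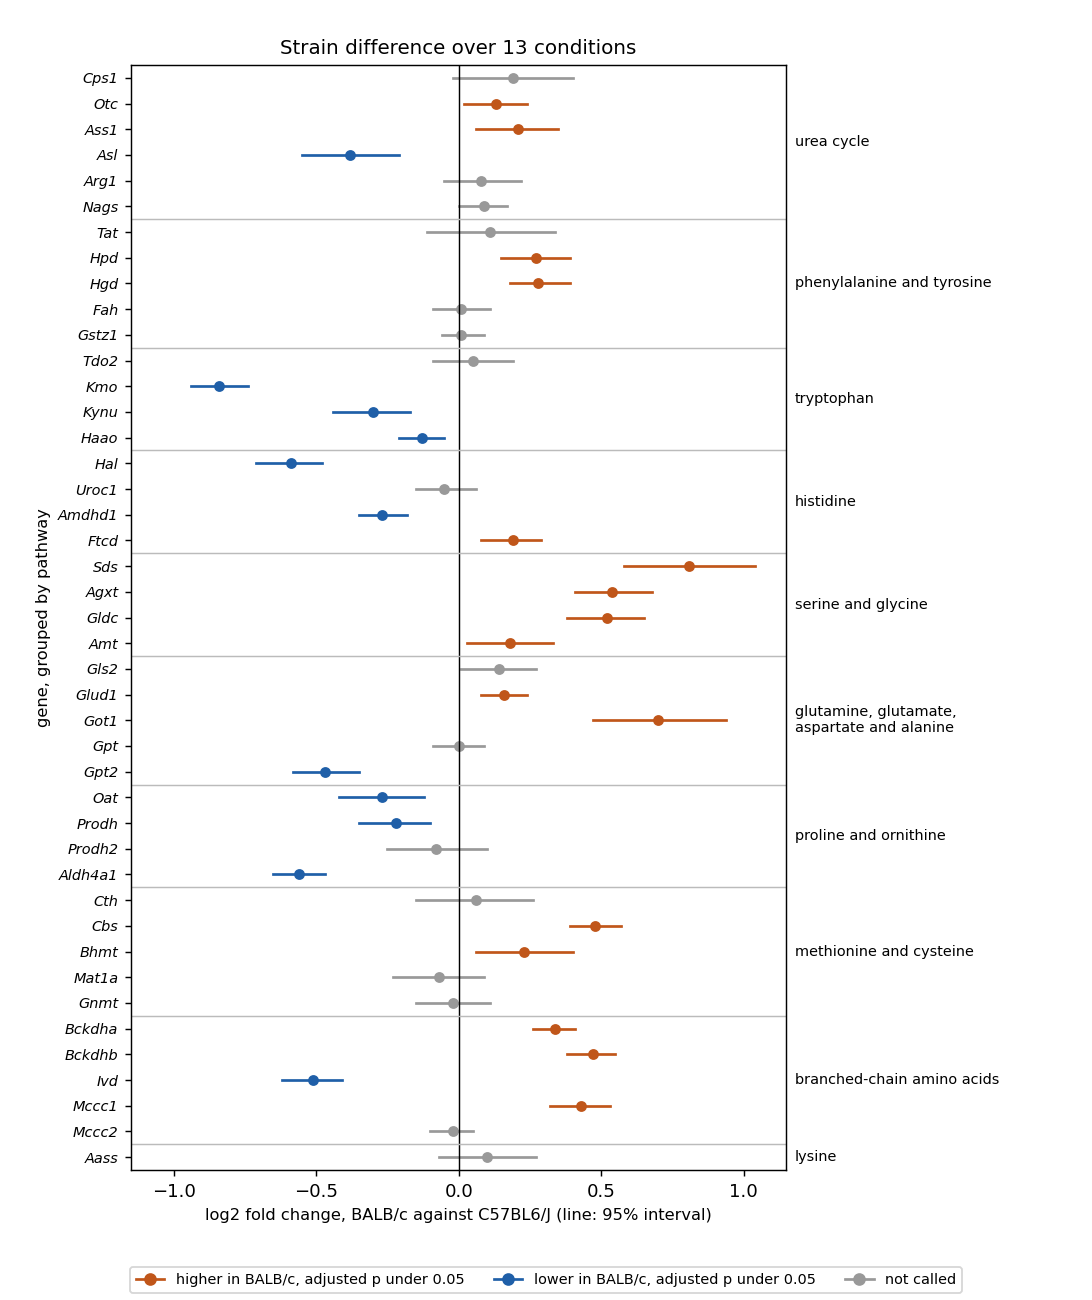
Log2 fold change of each of the 43 genes in BALB/c against C57BL6/J over 13 conditions, with 95% intervals; coloured points passed an adjusted p of 0.05 and grey points did not. Kmo is lowest at -0.84 and Sds highest at 0.81.

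The 2 branched-chain dehydrogenase subunits were both higher in BALB/c. Bckdhb was higher by 0.47 (SE 0.04, adjusted p = 1.08e-17) and Bckdha by 0.34 (SE 0.04, adjusted p = 2.10e-13), each in 13 of 13 conditions. Cbs was higher by 0.48 (SE 0.04, adjusted p = 5.37e-18), Mccc1 by 0.43 (SE 0.05, adjusted p = 3.06e-12), Agxt by 0.54 (SE 0.07, adjusted p = 2.67e-11) and Gldc by 0.52 (SE 0.07, adjusted p = 1.21e-10). Sds was higher by 0.81 and Got1 by 0.70. Plbd2, which overlaps Sds, was also higher, by 0.19 (adjusted p = 2.58e-05), and its part in the counts of Sds was not tested. Mccc2, the partner of Mccc1, was at -0.02, Amt at 0.18, Gpt at 0.00 and Prodh2 at -0.08, beside Prodh at -0.22. Of the 27 strain calls, 22 were kept under every alternative.

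At the end of the fast alone, 11 members were higher and 3 lower in BALB/c (8.63% and 7.67% of all genes). Only 4 were called without the fasted BALB/c library that stands apart, and Got1 and Cth then lay on the other side of 0, at -0.14 and -0.05. The change on water differed between strains for 2 of the 43 genes: Gpt2 at 6 h, where the change was -0.31 in C57BL6/J and -1.55 in BALB/c (difference -1.24, SE 0.30, adjusted p = 0.0331), and Cth, which makes cysteine, at 12 h, where it was 1.44 and -0.75 (difference -2.19, SE 0.52, adjusted p = 0.033). The background was 0.338%, 0.302% and 0.278% of all genes at 3, 6 and 12 h. Neither was called without the 3 libraries, at -0.29 (adjusted p = 0.837) and -0.64 (adjusted p = 0.904). In edgeR none was called at 3 h, with 9 at an unadjusted p under 0.05 and none by DESeq2. The sugar effect differed between strains in no member at 3, 6 or 12 h (0% of all genes each), with 0, 1 and 0 at an unadjusted p under 0.05 and none by DESeq2.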

How the data were processed

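Total RNA from mouse livers was sequenced as paired 150-base reads, per the labels' protocols. The submitters' processing notes name CASAVA, STAR 2.5, HTSeq 0.6.1 and DESeq2, with mm10 (GRCm38); no source used here says if counting was by strand. The deposited file gives the authors' raw read counts per gene and, beside them, FPKM values, which were used only to order levels. From the counts, CPM values were scaled by TMM. One edgeR 4.0.16 model (quasi-likelihood, robust; R 4.3.3, limma 3.58.1) held all 26 groups, genes with low counts were filtered, and p-values were adjusted by Benjamini-Hochberg over 16886 genes per contrast at 0.05. The fit was tested on simulated data for water at 3 h, over 16886 genes. Of 1.5-fold changes 34.0% were recovered and of 2-fold changes 71.0%, and 4.55% of calls were false. The simulated libraries were drawn independently with no library set apart, so these rates need not hold for the reported calls. DESeq2 1.42.0 counts, other size factors, no filter, a replicate block, the name suffix of 34 libraries, the libraries of each contrast only, and leaving out replicates or libraries were the alternatives; 2 settings without libraries that stand apart were added after the values were seen. There were 0 identical pairs of libraries, and libraries of a group differed by a chi-square of at least 17.7 per degree of freedom. The members and lists were chosen with earlier results of these data known. Per amino acid group, the gene with the smallest p on water, and Cps1, is given by library; up to 6 called genes per direction and contrast are given with fold change, SE and adjusted p. Some genes of the other lists that the rule names are not reported here. Got1 and Bhmt were added after their values were seen. Promoters came from RefSeq GRCm38.p6.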

Additional observations from a re-analysis of the deposited data

Results flagged for a closer look

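Each group of 4 or 5 libraries was searched for a value far from the rest, and chance gives such a value in about 1 in 20 groups; here 71 of 1118 values (6.35%) stood out, with the largest numbers in a single library in BALB/c water 0 h replicate 1 (9 genes) and BALB/c fructose 3 h replicate 4 (8). Among the values the text uses, BALB/c water 0 h replicate 1 was the highest of its group for Arg1 (5188 CPM), Nags (191 CPM), Hgd (1866 CPM), Kynu (214 CPM), Agxt (825 CPM), Gpt2 (2099 CPM) and Cth (2671 CPM), and the lowest for Otc (127.6 CPM) and Haao (236 CPM). C57BL6/J water 3 h replicate 4 was the highest of its group for Uroc1 (1026 CPM), Ftcd (1085 CPM) and Bckdhb (186 CPM) and the lowest for Arg1 (569 CPM), Gpt (414 CPM) and Mccc2 (36.6 CPM). In C57BL6/J on water at 12 h, replicate 3 was the highest for Uroc1 (712 CPM), Amdhd1 (440 CPM) and Agxt (479 CPM), replicate 4 the highest for Haao (563 CPM) and replicate 2 the lowest for Nags (61.4 CPM). Agxt was lowest in C57BL6/J water 0 h replicate 2 (126 CPM), Amt in C57BL6/J water 6 h replicate 3 (21.2 CPM), Amdhd1 in C57BL6/J glucose 3 h replicate 5 (135 CPM) and Aldh4a1 in BALB/c fructose 12 h replicate 5 (109 CPM). Gpt was highest in BALB/c fructose 6 h replicate 4 (770 CPM), Bhmt in C57BL6/J fructose 3 h replicate 5 (2051 CPM) and Gnmt in BALB/c water 12 h replicate 1 (3371 CPM).

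In 2 genes the change on water differed between the strains by the test of that difference: Gpt2 at 6 h (log2 difference -1.24, BALB/c minus C57BL6/J) and Cth at 12 h (-2.19). Both involve the fasted BALB/c group whose replicate 1 was the highest library for these genes, and neither passed without the 3 libraries that stand apart.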

How the results depend on the processing

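Members called, by setting, with the value of the reported analysis given in the text above. With only the libraries of each contrast in the fit, 9 were called on water at 3 h and 9 at 12 h, 5 for sucrose at 3 h, 7 for sucrose at 6 h, 6 for fructose at 6 h, 1 each for glucose and sucrose at 12 h, 1 between strains at 0 h, and 0 for the strain difference in the change on water at 6 h and at 12 h; this setting gives no value for the strain contrast over 13 conditions. With the libraries without the name suffix, 0 were called for sucrose at 3 h, 1 for fructose at 3 h, 0 for glucose, sucrose and fructose at 6 h, and 0 for the strain difference at 6 and at 12 h. With no filter on low counts, 1 was called for fructose at 3 h, 2 for glucose and 2 for sucrose at 6 h, 1 for fructose at 6 h and 0 for the strain difference at 12 h. Without the libraries nearer to another time, 0 were called for fructose at 3 h, 2 for sucrose and 5 for fructose at 6 h, 4 for glucose at 12 h, 0 for the strain difference at 6 h and 2 at 12 h. Without the 3 libraries that stand apart, 7 were called for glucose at 6 h, 5 for fructose at 6 h, 4 between strains at 0 h, and 0 for the strain difference at 6 and at 12 h. DESeq2 called 5 for fructose at 6 h, 3 for glucose at 12 h and 1 for sucrose at 12 h. With the name suffix as a covariate, 1 was called for glucose at 12 h. The cause of these differences was not tested.

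With a replicate block, 4 members were called for fructose at 6 h against 2 without it, and every other count stayed within 1.5 times. Same-numbered libraries had a median correlation of 0.0829 (714 of 1576 pairs over 0.1) and others -0.0224 (1221 of 6300 over 0.1). A larger share of same-numbered pairs was over 0.1, and the reported fit has no term for that number. Its p-values therefore do not allow for what such libraries may share.

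Leaving out 1 replicate number or 1 library at a time gave 8 to 14 calls on water at 3 h, 13 to 19 at 6 h and 11 to 18 at 12 h. For sugars against water it gave 0 to 3 for sucrose and 0 to 3 for fructose at 3 h, 0 to 7 for glucose, 0 to 6 for sucrose and 0 to 6 for fructose at 6 h, and 0 to 5 for glucose at 12 h. It gave 0 to 1 for fructose against glucose at 3 h, 23 to 29 between strains over 13 conditions, 3 to 14 between strains at 0 h, 0 to 1 for the strain difference in the change on water at 6 h and 0 to 2 at 12 h. The values 3 and 4 at 0 h come from leaving out the fasted replicates 1 and the fasted BALB/c replicate 1. At 0 h the difference between strains turned from higher to lower in BALB/c for Tat (-0.01 without the 3 libraries), Got1 (-0.14 without the fasted BALB/c replicate 1, -0.27 without the 3, up to 2.19 without 1 replicate number) and Cth (-0.05 and -0.06, up to 1.70).

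In the simulated data only 34.0% of 1.5-fold changes were recovered on water at 3 h, so members with smaller changes may have been missed.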
